A study of Mus musculus with 20 samples.

Results

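The 336 genes described here are protein-coding genes of mouse chromosome 9 that the authors' deposited tables list as different between Ripk3-/- and wild-type cells, with or without palmitate. They were taken by the chromosome and biotype columns of those tables and ordered by gene start. Gclc, Pkm, Pccb and names starting with Rpl, Rps, Mrp, Nduf, Cox, Uqcr, Atp5 or Slc were left out, which removed 16 protein-coding genes, and 33 further chromosome 9 rows were not protein coding. Both genotype tables together list 4988 genes, 4370 of them protein coding. Of the 336 members, 193 are in both tables, 30 in the untreated table alone and 113 in the palmitate table alone. Since being listed for genotype chose these genes, their genotype differences are given as a description and are not tested. The exception is how many genes listed without palmitate were listed again in the palmitate libraries, which the untreated listing did not use. Single genes have values there only if they were listed there too. Their p-values in the palmitate libraries are therefore also a description.

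RNA-seq was done on AML-12 cells, a line of hepatocytes established from a mouse that carries a transforming growth factor alpha transgene. There were 4 groups of 5 libraries each: Ripk3-/- (knockout, KO) cells and wild-type (WT) cells given 125 µM palmitate, a saturated fatty acid, bound to bovine serum albumin for 24 h, and Ripk3-/- and wild-type cells left untreated. The labels name neither the number of knockout clones nor separate cultures, and no group is described as given albumin alone, so any p-value reflects library-to-library spread, which may be technical, and palmitate cannot be told apart from its carrier. DNA copy number was not analysed here.

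Library totals ran from 21.2 M to 30.1 M reads. Ripk3, the kinase gene for which the knockout is named, lies on chromosome 14. Its normalised counts were 2.06 to 11.5 in knockout and 18.4 to 26.3 in wild-type libraries with palmitate. Without palmitate they were 1.18 to 8.53 in knockout and 10.4 to 25.97 in wild-type libraries (two-sided exact permutation p = 0.00794 for each treatment, the smallest that 5 against 5 libraries allow). Its reads were fewer but not absent in knockout cells, at 29 against 114 with palmitate and 22 against 97 without. The log2 fold changes were -1.79 (SE 0.32) and -1.90 (SE 0.39). Untreated knockout replicate 1 stood apart from its group, with a chi-square per degree of freedom of 35.0 to 48.2 against the other 4 libraries, where all other pairs within a group lay between 2.76 and 15.2. Results that rest on this library are therefore also given without it. Of the hepatocyte markers 8 of 9 were listed in some table, of the cholangiocyte markers 4 of 5 (Spp1, Krt7, Krt19 and Sox9), of the mesenchymal markers 2 of 6, of the macrophage markers 1 of 4 and of the endothelial markers 0 of 3. A gene not listed for any comparison has no value in the files, so these counts do not show which markers the cells lack.

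Chromosome 9 of the mouse opens with a cluster of inflammatory caspase genes and a cluster of matrix metalloproteinase genes. Further along it carries the apolipoprotein A1, A4, A5 and C3 cluster, the alpha class glutathione transferases, several families of olfactory receptors and many genes that every cell uses. Inflammatory caspases are proteases that cut gasdermin D and cytokine precursors during pyroptosis, a lytic form of cell death. RIPK3 drives another lytic form, necroptosis, by phosphorylating the membrane-permeabilising protein MLKL. Pannexin-1, also encoded on chromosome 9, is a membrane channel for ATP that apoptotic caspases and caspase-11, the product of mouse Casp4, are known to cleave open.

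The promoters of 4 members are shown first, those of the neighbouring caspase genes Casp1, Casp4 and Casp12, which form the cluster of genes higher in knockout cells, and that of Panx1, the member with the lowest knockout level relative to wild type. Each runs from 250 bases before to 50 bases after the RefSeq gene start, on GRCm38.p6, in the direction of transcription. Casp1 lies at chr9:5298267-5298566, Casp4 at chr9:5308599-5308898 and Casp12 at chr9:5345226-5345525, all on the plus strand, and Panx1 at chr9:15045429-15045728 on the minus strand. Capitals mark CG pairs.
Casp1: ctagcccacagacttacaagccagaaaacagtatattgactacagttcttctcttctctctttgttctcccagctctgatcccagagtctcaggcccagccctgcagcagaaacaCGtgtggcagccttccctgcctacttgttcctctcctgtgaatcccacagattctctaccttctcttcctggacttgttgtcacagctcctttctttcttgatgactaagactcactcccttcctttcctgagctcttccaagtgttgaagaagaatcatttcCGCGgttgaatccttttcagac
Casp4: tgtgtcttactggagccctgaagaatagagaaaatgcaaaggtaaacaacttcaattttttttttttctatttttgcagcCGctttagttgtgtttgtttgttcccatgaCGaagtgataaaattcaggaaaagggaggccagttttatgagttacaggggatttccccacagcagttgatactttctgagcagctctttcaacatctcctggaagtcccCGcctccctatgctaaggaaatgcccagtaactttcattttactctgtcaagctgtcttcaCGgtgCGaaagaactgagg
Casp12: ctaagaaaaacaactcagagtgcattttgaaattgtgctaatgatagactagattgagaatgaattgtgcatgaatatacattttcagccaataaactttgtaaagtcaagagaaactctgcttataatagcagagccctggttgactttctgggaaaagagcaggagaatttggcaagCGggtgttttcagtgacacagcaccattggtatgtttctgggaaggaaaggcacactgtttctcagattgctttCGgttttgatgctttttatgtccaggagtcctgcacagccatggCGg
Panx1: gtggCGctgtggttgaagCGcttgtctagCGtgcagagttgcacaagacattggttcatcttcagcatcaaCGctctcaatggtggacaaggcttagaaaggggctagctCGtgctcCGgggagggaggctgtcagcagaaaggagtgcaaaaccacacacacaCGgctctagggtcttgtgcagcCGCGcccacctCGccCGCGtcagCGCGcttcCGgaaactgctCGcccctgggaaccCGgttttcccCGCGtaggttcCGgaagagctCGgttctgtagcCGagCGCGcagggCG

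The caspase promoters held 3, 5 and 3 CG pairs in 300 bases, and the Panx1 promoter held 25. Among the 278 of 336 members with an entry in the RefSeq table the median was 20 CG pairs, and over all 27025 promoters of the table, noncoding genes included, it was 7. Of 3 short promoter motifs searched on both strands, the TATA box TATAAA and the GC box GGGCGG were found in none of the 4 windows. The CCAAT box CCAAT was found at 2 places for Casp12, at 1 for Panx1 and at 0 for Casp1 and Casp4. These motifs occur in 14.2%, 35.9% and 37.9% of all promoters of that length, in the order TATA, GC and CCAAT, and in 9.71%, 67.3% and 39.6% of the members' promoters. No match says only that these letters are not in the window.

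Most chromosome 9 genes listed for genotype had lower transcript levels in knockout than in wild-type cells in either treatment, and such genes lay along nearly the whole chromosome. For 29 chromosome 9 genes that neither genotype table lists, counts exist in both genotypes because both palmitate tables list them. Their median log2 fold changes were -0.04 with palmitate and 0.02 without. Having failed the genotype listing favours such small differences, so these medians do not show whether unlisted genes of the chromosome differ. The typical difference of the listed genes was small, a level of about 88% of wild type, and it was shared by genes of unrelated function. Against this background the 3 inflammatory caspases, Mmp7, Fxyd2, Lars2 and Trf were higher in knockout cells, and Panx1 and St14 had few or no reads in them.

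The authors' deposited table for palmitate-treated cells, which lists 24.6% of all genes tested, has 273 members lower and 33 higher in knockout cells, where 12.3% of all genes tested were listed lower and 12.3% higher. The authors' deposited table for untreated cells, which lists 18% of all genes tested, has 206 members lower and 17 higher, where 8.88% of all genes tested were listed lower and 9.09% higher. The lower share of the members was therefore 89.2% with palmitate and 92.4% without, against 50.3% and 47.9% of listed protein-coding genes on all other chromosomes. Because listing chose the members, these shares describe the list and are no test. From the same counts edgeR called 273 members lower and 33 higher with palmitate, where it called 12.1% of all genes tested lower and 12.1% higher. Untreated it called 177 lower and 15 higher, where 7.42% and 7.08% of all genes tested were called. Over both directions edgeR called 24.2% of all genes tested with palmitate and 14.5% without. Knockout and wild-type libraries did not overlap for 236 of 306 members with palmitate and for 161 of 223 without, where this held for 70.5% and 57% of all listed genes. Without untreated knockout replicate 1 the untreated calls were 169 lower and 15 higher, and the share of all genes called then is not given here. Of the members named in the text, Pdgfd, Birc3, 4931406C07Rik, Icam1, Acad8, Bud13, Acat1, Neo1 and Zfp609 were listed untreated by the authors and not called by edgeR there, so their untreated values are given as listed.

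**Figure D1:**
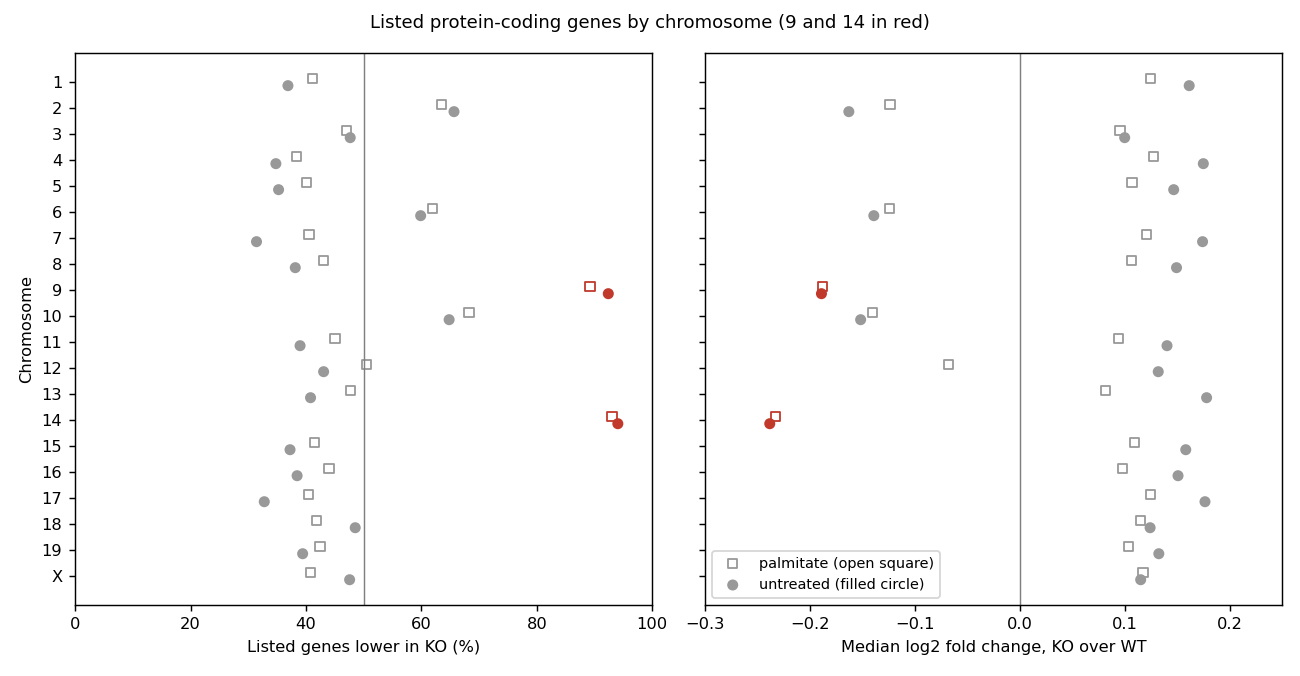
Share of listed protein-coding genes that were lower in KO than in WT cells (left, percent) and their median log2 fold change of KO over WT (right), by chromosome, with chromosomes 9 and 14 in red, open squares for palmitate-treated and filled circles for untreated cells. Chromosome 9 sits at 89.2% lower with palmitate and 92.4% without, and 18 other chromosomes sit between 31.4% and 68.2%.

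Chromosome 14, which carries Ripk3 itself, showed the same arrangement. Its listed protein-coding genes were lower in 93.0% of cases with palmitate and in 94.0% without, with median log2 fold changes of -0.23 and -0.24. On the other 18 chromosomes the lower share ran from 38.4% on chromosome 4 to 68.2% on chromosome 10 with palmitate, and from 31.4% on chromosome 7 to 65.6% on chromosome 2 without it. Listed protein-coding genes off chromosomes 9 and 14 had a median log2 fold change of 0.09 with palmitate and 0.13 without. The plot of shares by chromosome shows that chromosomes 2, 6 and 10 also had negative medians in both treatments, each closer to 0 than those of chromosome 9.

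The median log2 fold change of the members, knockout over wild type, was -0.19 in both treatments, which is 87.8% of the wild-type level with palmitate and 87.7% without. The middle 50% of members lay between -0.27 and -0.13 with palmitate and between -0.29 and -0.15 without. Highly counted members lay closest together. Of the 173 members with a mean normalised count of at least 1000 with palmitate, 134 were lower by 0.1 to 0.3 on the log2 scale, and without palmitate this held for 111 of 130. Members with a mean count of at least 5000 had a median of -0.14 in both treatments, those from 1000 to 5000 of -0.17 and those from 100 to 1000 of -0.24 with palmitate and -0.23 without. Members under 100 had medians of -0.85 and -0.97, which the listing itself shapes, since a gene of few reads needs a large difference to be listed. The listing also shapes the medians above 100, since smaller differences pass it as counts rise.

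The shift of the listed members was seen in every knockout library. Over members that start from 10 Mb on and have a mean count of at least 1000, the median log2 ratio to the wild-type mean was -0.15 in palmitate-treated knockout replicate 1 and -0.16 in the other 4 palmitate-treated knockout libraries. In untreated knockout cells it was -0.13 in replicate 1, -0.17 in replicates 2 and 3, -0.16 in replicate 4 and -0.18 in replicate 5. All 10 wild-type libraries lay within 0.01 of their own mean. Over listed genes off chromosomes 9 and 14 the same knockout libraries had medians above 0, from 0.03 to 0.07 with palmitate and from 0.05 to 0.11 without. Both sets were listed for differences between these same libraries. The opposite signs of their medians within each library therefore describe the listing and are no test. Among untreated knockout libraries replicate 1 was the nearest to wild type in both sets of genes.

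**Figure D2:**
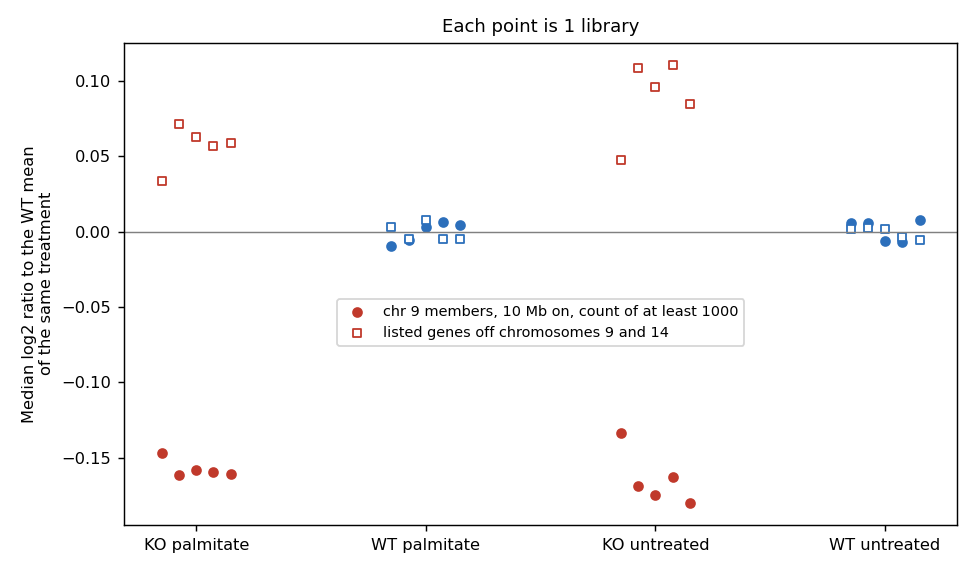
Median log2 ratio of each library to the WT mean of the same treatment, over chromosome 9 members that start from 10 Mb on with a mean normalised count of at least 1000 (filled circles) and over listed protein-coding genes off chromosomes 9 and 14 (open squares), with KO in red and WT in blue. All 10 KO libraries lie between -0.13 and -0.18 for chromosome 9 and above 0 for the other chromosomes.

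All 336 members had the same start and end in the GENCODE M21 annotation of GRCm38 as in the deposited tables, and they span 120.4 Mb. They are 28.7% of the 1170 protein-coding genes that this annotation and the same exclusions give for chromosome 9, and 132 of the 1170 are olfactory or vomeronasal receptor genes. On the plus strand lie 183 members and on the minus strand 153. Of all members, 158 overlap a gene on the other strand, 79 of them a coding one, and since the counting is not stated to use strand, reads of such pairs cannot be told apart. Of the members named in the text, Pdgfd, Mmp12, 4931406C07Rik, Carm1, 1110032A03Rik, Adamts7, Rhoa, Acaa1b, Myd88 and Fyco1 overlap a coding gene on the other strand. A noncoding gene there is overlapped by Mmp7, Arhgap42, Icam1, Tyk2, Keap1, Acp5, St14, Ddx6, Ube4a, Cadm1, Neo1, Rora, Tcf12, Tpbg, Me1, Mthfs, Plscr1, Plod2, Spsb4, Pik3r4, Scap and Crtap.

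Cut into windows of 10 Mb, the listed members had a negative median in 12 of 13 windows and a positive one in the first. Window medians from 10 Mb on ran from -0.25 in the window of 110 to 120 Mb to -0.14 in that of 80 to 90 Mb with palmitate, and from -0.27 to -0.14 in the same windows without it. All 22 listed members of the window of 110 to 120 Mb, all 22 of that of 60 to 70 Mb and all 27 of that of 20 to 30 Mb were lower in untreated knockout cells. In the first 10 Mb, 7 of the 12 members listed with palmitate were higher (median log2 fold change 0.14), and 6 of the 9 listed without it (median 0.26). Of all 13 members in this first window 7 were higher, and of the 323 members beyond it 28 were. The share of the annotated genes that were listed was lowest, 9.80% with palmitate and 6.54% without, in the window of 30 to 40 Mb.

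**Figure D3:**
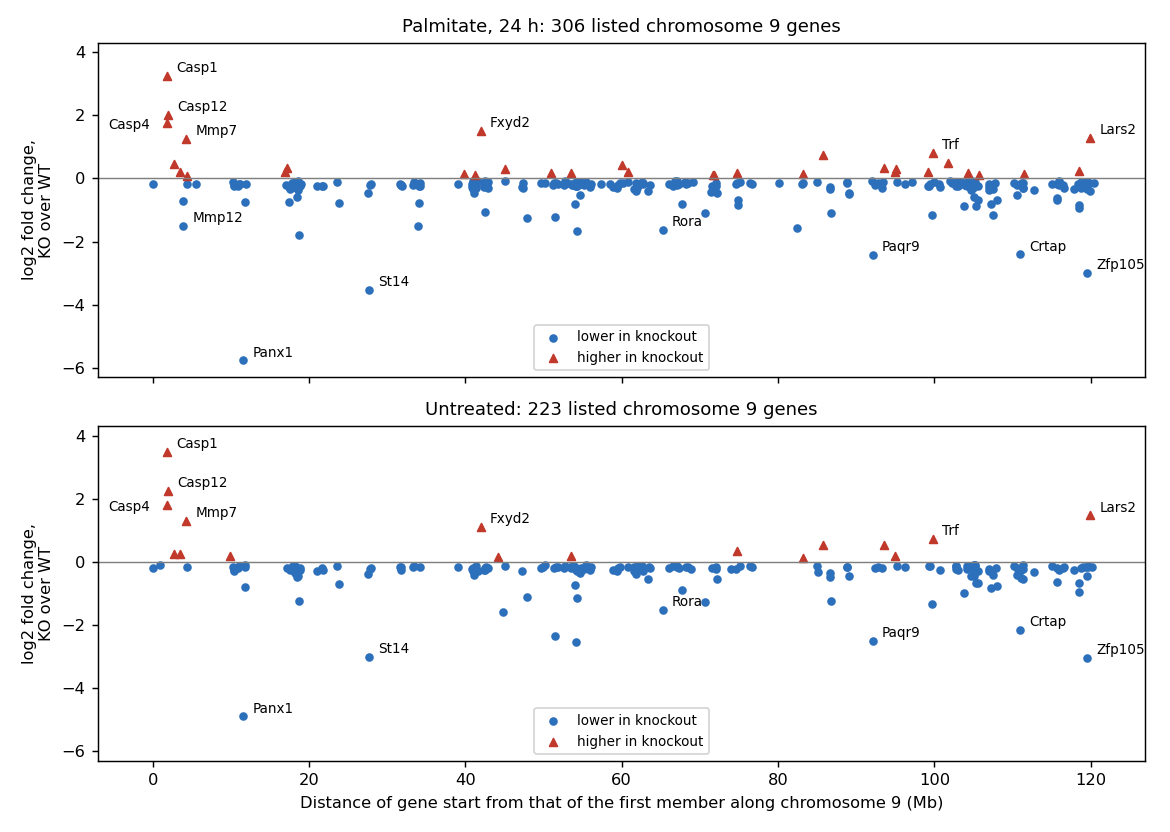
Log2 fold change of KO over WT for each listed chromosome 9 member against the distance of its start from that of the first member (Mb), palmitate above and untreated below, with red triangles for members higher and blue circles for members lower in KO cells. Most members form a band just below 0 along the whole axis, and Casp1, Casp12, Casp4 and Mmp7 stand above it within the first 5 Mb.

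The caspase cluster held the largest rises on the chromosome. Casp4 (ENSMUSG00000033538, chr9:5308828-5336783, plus strand) encodes caspase-11, the mouse sensor of cytosolic lipopolysaccharide. Its normalised count was 104, 126, 90.9, 91.9 and 100 in palmitate-treated knockout libraries, against 27.2, 34.9, 35.1, 25.1 and 30.8 in wild-type ones. Without palmitate it was 112, 113, 147, 103 and 108 in knockout and 35.6, 31.8, 38.0, 37.4 and 24.1 in wild-type libraries. Every knockout library lay above every wild-type library in both treatments, and untreated knockout replicate 3 was the highest. For Casp4, Casp12, Mmp7, Rora, Rab6b, Adamts7, Fxyd2 and Me1 the choice of named genes required that the untreated groups not overlap. The log2 fold change was 1.74 (SE 0.14) with palmitate and 1.80 (SE 0.15) without (n = 5 per group). Casp4 was listed in both treatments, and in the palmitate libraries it was higher in knockout cells with an edgeR adjusted p of 8.91e-09.

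Casp12 (ENSMUSG00000025887, chr9:5345430-5373032, plus strand), a caspase linked to the endoplasmic reticulum in rodents, had the same pattern. Its count was 98.5, 106, 91.8, 94.1 and 107 in palmitate-treated knockout libraries, against 18.5, 28.3, 34.3, 23.4 and 17.1 in wild-type ones. It was 140, 130, 98.1, 95.8 and 165 in untreated knockout and 21.7, 22.7, 35.2, 27.8 and 24.1 in untreated wild-type libraries. The groups did not overlap, and the log2 fold change was 2.01 (SE 0.16) with palmitate, where edgeR gave an adjusted p of 4.16e-09, and 2.25 (SE 0.19) without.

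Casp1 (ENSMUSG00000025888, chr9:5298517-5307265, plus strand), the caspase of inflammasomes that matures interleukin-1 beta, had few reads. The 5 knockout libraries held 81 reads together with palmitate and 93 without, against 9 reads in the wild-type libraries of each treatment. Normalised counts averaged 17.1 ± 4.66 in knockout and 1.62 ± 0.834 in wild-type cells with palmitate, and 19.7 ± 6.07 in knockout and 1.68 ± 0.823 in wild-type cells without (SD, n = 5 each). All knockout libraries, at 12.4 or more, lay above all wild-type libraries, at 2.90 or less. The log2 fold change was 3.25 (SE 0.40, edgeR adjusted p = 2.4e-06 in the palmitate libraries) with palmitate and 3.48 (SE 0.39) without. Casp1, Casp4 and Casp12 are consecutive members along the chromosome and overlap no gene on the other strand.

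Of the 10 matrix metalloproteinase genes of the chromosome, enzymes that degrade extracellular matrix, 3 were members and they did not share a direction. Mmp7 (ENSMUSG00000018623, chr9:7692090-7699585), matrilysin, had counts of 172, 126, 147, 124 and 117 in palmitate-treated knockout libraries, against 55.4, 64.1, 65.0, 50.9 and 51.4 in wild-type ones. It had 122, 163, 131, 132 and 147 in untreated knockout and 54.7, 59.0, 47.3, 60.4 and 59.8 in untreated wild-type libraries. Knockout libraries were all above wild-type ones, by 1.25 (SE 0.13, edgeR adjusted p = 1.94e-07) on the log2 scale with palmitate and by 1.30 (SE 0.12) without. Mmp13, a collagenase, was listed with palmitate alone, at 157, 114, 117, 78.1 and 116 in knockout and 193, 235, 189, 160 and 184 in wild-type libraries, a log2 fold change of -0.72 (SE 0.14). Mmp12, macrophage elastase, was also lower with palmitate (-1.499, SE 0.401), on 16 reads in knockout and 52 in wild-type libraries.

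The other members of the first window moved less. Pdgfd, a platelet-derived growth factor, was higher by 0.47 (SE 0.07) with palmitate and by 0.24 (SE 0.08) without. Dync2h1, the motor of retrograde transport in cilia, was higher by 0.20 (SE 0.05) and 0.26 (SE 0.07), and Tmem123, listed with palmitate alone, by 0.09 (SE 0.03). Cwf19l2, the first member along the chromosome and a factor linked to splicing, was lower by 0.19 on the log2 scale with palmitate and by 0.18 without. Birc3, an inhibitor of apoptosis and ubiquitin ligase of NF-kB signalling, was lower by 0.19 and 0.16, and Arhgap42, a GTPase-activating protein listed with palmitate, by 0.18.

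Panx1 (ENSMUSG00000031934, chr9:15002128-15045478, minus strand) had the lowest knockout level relative to wild type of all members. Its count was 0 in palmitate-treated knockout replicates 1, 2, 3 and 5 and 1.15 in replicate 4, against 13.6, 21.7, 18.4, 20.2 and 14.9 in wild-type libraries. Without palmitate it was 0.975, 1.07, 0, 1.14 and 0 in knockout and 21.7, 23.6, 21.3, 17.3 and 29.0 in wild-type libraries. Knockout libraries thus held 0 or 1 read each. The ratio of knockout to wild type was 0.0117 with palmitate (1 read against 96, exact 95% counting interval 0.000293 to 0.0667) and 0.0285 without (3 reads against 122, 0.0058 to 0.0853), and these intervals cover counting error only. The edgeR adjusted p in the palmitate libraries was 1.27e-07.

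St14 (ENSMUSG00000031995, chr9:31089402-31131853), matriptase, a membrane serine protease of epithelia, was also low in knockout cells. It had 2.29, 5.23, 0.918, 1.15 and 0 in palmitate-treated knockout libraries and 28.2, 21.7, 29.9, 14.5 and 21.7 in wild-type ones. It had 6.82, 2.13, 1.02, 0 and 0 in untreated knockout and 18.2, 19.97, 15.8, 16.3 and 19.3 in untreated wild-type libraries. The groups did not overlap, on 9 reads against 123 with palmitate and 10 against 97 without. Zfp105, a zinc finger protein (log2 fold change -2.99, SE 0.47, with palmitate and -3.05, SE 0.51, without), Paqr9, a progestin and adipoQ receptor family member (-2.42, SE 0.47, and -2.50, SE 0.39), and Crtap, which helps hydroxylate a proline in collagen (-2.40, SE 0.45, and -2.16, SE 0.47), were also strongly lower at few reads, 7 to 12 in knockout against 59 to 82 in wild-type cells.

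Among members with a mean count of at least 50, the lowest in untreated knockout cells relative to wild type was Rora (ENSMUSG00000032238, chr9:68653786-69388246), a nuclear receptor of the circadian clock and of liver lipid metabolism. Its counts were 41.2, 27.2, 25.7, 25.3 and 32.0 in palmitate-treated knockout libraries, against 81.7, 79.1, 119, 83.2 and 102 in wild-type ones. Without palmitate they were 23.4, 27.7, 32.7, 22.8 and 31.9 in knockout and 81.6, 85.3, 79.8, 77.6 and 71.4 in wild-type libraries. The highest knockout library, at 41.2, lay below the lowest wild-type one, at 71.4, with log2 fold changes of -1.62 (SE 0.17, edgeR adjusted p = 2.03e-07 in the palmitate libraries) and -1.51 (SE 0.15).

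Rab6b, a Golgi transport GTPase best known from neurons, averaged 35.1 ± 7.67 in knockout and 78.0 ± 7.36 in wild-type cells with palmitate, and 35.8 ± 5.87 in knockout and 90.1 ± 7.44 in wild-type cells without (SD, n = 5 each). Adamts7, a secreted metalloproteinase that cleaves cartilage oligomeric matrix protein, averaged 65.8 ± 12.7 in knockout and 141 ± 11.0 in wild-type cells with palmitate, and 72.6 ± 16.2 in knockout and 173 ± 26.5 in wild-type cells without. Acp5, tartrate-resistant acid phosphatase, averaged 19.2 ± 4.93 in knockout and 68.2 ± 9.39 in wild-type cells with palmitate, and 24.6 ± 5.14 in knockout and 57.7 ± 6.83 in wild-type cells without. In none of these 3 genes did a knockout library reach the lowest wild-type library. Their log2 fold changes with palmitate were -1.15 (SE 0.15), -1.10 (SE 0.12) and -1.79 (SE 0.18).

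Further members lower in knockout cells were Mapkapk3, a kinase downstream of p38 (-0.88, SE 0.10, with palmitate and -0.97, SE 0.12, without), Nradd, related to the neurotrophin receptor p75 (-0.81, SE 0.10, and -0.82, SE 0.11), and Scamp5, a secretory carrier membrane protein (-0.80, SE 0.10, and -0.72, SE 0.09). Igsf9b, a synaptic adhesion molecule, was lower by 0.79 and 0.71 on the log2 scale, Dclk3, a doublecortin-like kinase, by 0.67 and 0.77, and Col7a1, the collagen of anchoring fibrils, by 0.69 and 0.66. Acaa1b, a peroxisomal thiolase of fatty acid oxidation, was lower by 0.63 and 0.62 and is uncertain, because its neighbour Acaa1a is a near copy that could share reads. All 7 genes had groups that did not overlap without palmitate, which their choice required.

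**Figure D4:**
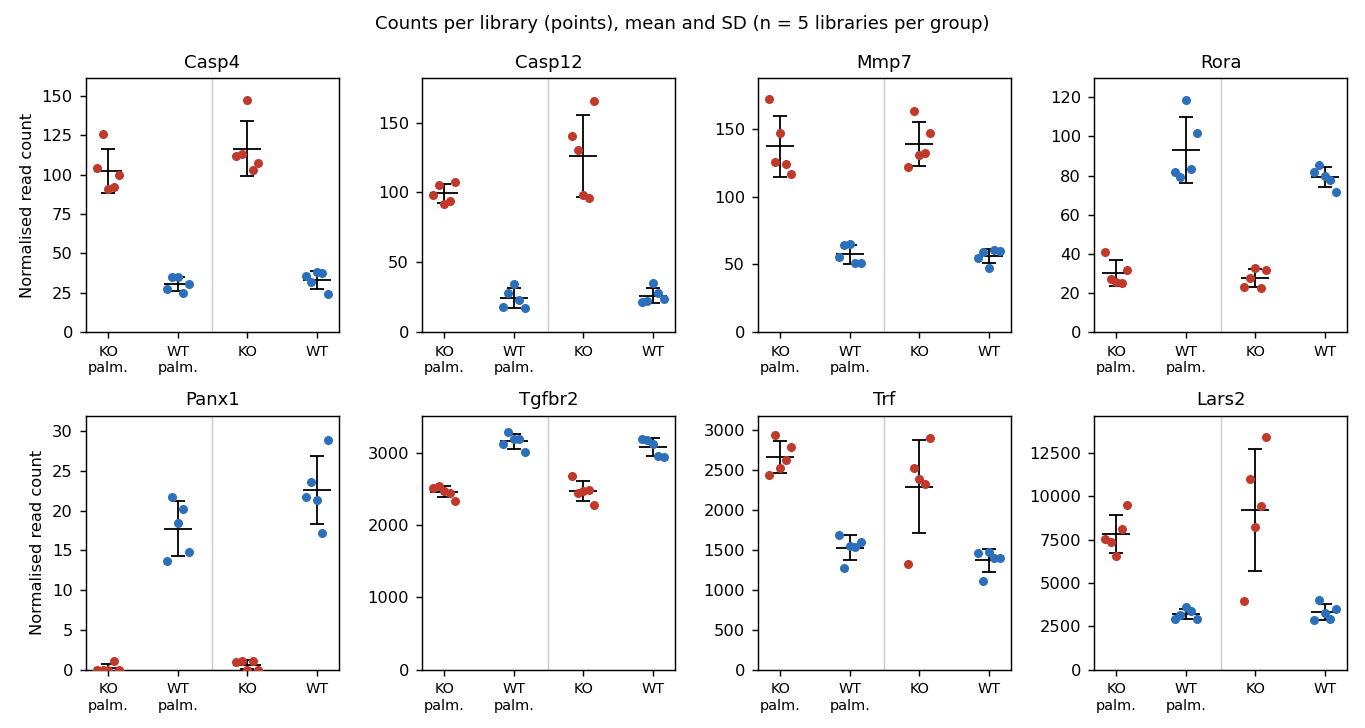
Normalised read counts of 8 chromosome 9 members in each library (points), with KO in red left of WT in blue, palmitate-treated cells left and untreated cells right of the grey line, and bars for mean and SD (n = 5). KO and WT points do not overlap for Casp4, Casp12, Mmp7, Rora, Panx1 and Tgfbr2, and for Trf and Lars2 untreated KO replicate 1, the lowest KO point, lies within the range of the untreated WT libraries.

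Beyond the first window the highest members in knockout cells were Fxyd2, Lars2 and Trf. Fxyd2 (ENSMUSG00000059412, chr9:45399669-45410278), the gamma subunit that tunes the sodium pump, had counts of 59.6, 58.6, 65.2, 48.2 and 41.3 in palmitate-treated knockout libraries, against 17.5, 20.7, 22.0, 16.2 and 20.6 in wild-type ones. It had 78.0, 69.3, 92.0, 92.4 and 82.7 in untreated knockout and 45.1, 38.1, 47.3, 34.5 and 24.1 in untreated wild-type libraries. The groups did not overlap, with log2 fold changes of 1.499 (SE 0.177, edgeR adjusted p = 1.51e-06 in the palmitate libraries) and 1.12 (SE 0.17).

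Trf (ENSMUSG00000032554, chr9:103204001-103230444), transferrin, the iron carrier that hepatocytes secrete, had counts of 2436, 2938, 2523, 2626 and 2787 in palmitate-treated knockout and 1683, 1272, 1547, 1536 and 1605 in wild-type libraries. Without palmitate it had 1330 in knockout replicate 1 and 2522, 2388, 2324 and 2905 in the others, against 1464, 1116, 1472, 1403 and 1395 in wild-type libraries. The groups separated with palmitate (log2 fold change 0.80, SE 0.08, edgeR adjusted p = 2.08e-05), whereas untreated knockout replicate 1 lay among the wild-type libraries. The untreated log2 fold change was 0.74 (SE 0.19) with that library and 0.89 without it.

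Lars2 (ENSMUSG00000035202, chr9:123366927-123462666), the mitochondrial leucyl-tRNA synthetase, had counts of 7520, 7359, 6541, 8116 and 9486 in palmitate-treated knockout and 2941, 3141, 3636, 3374 and 2928 in wild-type libraries. Without palmitate it had 3941 in knockout replicate 1 and 10995, 8241, 9412 and 13412 in the others, against 2844, 3999, 3279, 2932 and 3481 in wild-type libraries. Here too untreated knockout replicate 1 lay among the wild-type libraries. The log2 fold change was 1.28 (SE 0.11) with palmitate and 1.48 (SE 0.30) without, or 1.67 without that library. Malat1, a nuclear long noncoding RNA on chromosome 19, showed the same arrangement of libraries, with 26479 in untreated knockout replicate 1 and 56654 to 69053 in the other untreated knockout libraries, against 25028 to 31161 in untreated wild-type ones. The mouse Lars2 gene holds a stretch that resembles ribosomal RNA, so its counts are uncertain, and the part of RNA composition in its difference was not tested.

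Other members were higher by smaller amounts. Me1, the cytosolic malic enzyme that supplies NADPH for fatty acid synthesis, averaged 11087 ± 273 in knockout and 10088 ± 213 in wild-type cells with palmitate, and 10895 ± 201 in knockout and 10086 ± 232 in wild-type cells without (SD, n = 5 each), with groups that did not overlap. Spsb4, a ubiquitin ligase adaptor, was higher by 0.32 (SE 0.09) with palmitate and 0.55 (SE 0.10) without, Mthfs, a folate enzyme, by 0.73 (SE 0.13) and 0.52 (SE 0.13), and Gsta4, a glutathione transferase for lipid aldehydes, by 0.17 (SE 0.04) and 0.35 (SE 0.06). Cadm1, a cell adhesion molecule, was listed without palmitate alone (0.16, SE 0.03). Of the members listed with palmitate alone, Nudt16 (0.49, SE 0.14), Rbp2 (0.31, SE 0.08), Gm5617 (0.30, SE 0.08), Snapc5 (0.21, SE 0.06) and Oaf (0.14, SE 0.03) were the highest with at least 50 counts and separate groups.

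The most abundant members followed the small downward shift. Eef1a1, a translation elongation factor, averaged 263201 ± 2236 in knockout and 282961 ± 10396 in wild-type cells with palmitate, and 290821 ± 15403 in knockout and 317184 ± 9500 in wild-type cells without (SD, n = 5 each). Aplp2, a relative of the amyloid precursor protein, averaged 26157 ± 724 in knockout and 30084 ± 746 in wild-type cells with palmitate, and 30149 ± 1567 in knockout and 35070 ± 639 in wild-type cells without. Tpm1, an actin-binding tropomyosin, averaged 13782 ± 132 in knockout and 16061 ± 360 in wild-type cells with palmitate, and 17998 ± 1042 in knockout and 20374 ± 683 in wild-type cells without. These are falls of 0.10, 0.20 and 0.22 on the log2 scale with palmitate and of 0.13, 0.22 and 0.18 without. Groups did not overlap for Aplp2, nor for Tpm1 with palmitate. They overlapped for Tpm1 without palmitate and for Eef1a1 in both treatments, with untreated knockout replicate 1 at 316060 and palmitate-treated wild-type replicate 2 at 264788.

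In 7 further windows the member with the highest count was also lower in knockout cells. With palmitate the log2 fold change was -0.14 for Plscr1, a phospholipid scramblase, -0.15 for Gnai2, an inhibitory G protein subunit, -0.12 for Neo1, the netrin receptor neogenin, -0.14 for Pdcd6ip, the ESCRT-linked protein ALIX, and -0.12 for Smarca4, the ATPase of SWI/SNF remodelling. Without palmitate it was -0.11 for Msantd4 and -0.10 for 4931406C07Rik, which were not listed with palmitate. In the remaining 3 windows the member with the highest count was higher in knockout cells, namely Me1, Lars2 and Ddx6, an RNA helicase of P-bodies, at 0.12 (SE 0.03) with palmitate. Fyco1, an adaptor of autophagosome transport and the last member along the chromosome, was lower by 0.15 (SE 0.04) with palmitate.

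Lists of related genes were read against the same background. Of 18 genes for GTPases, MAP kinases and the cytoskeleton, 9 were members, and all 9 were lower with palmitate (median log2 fold change -0.16) and all 8 listed without it (median -0.18). Among them Rhoa, the GTPase of stress fibres, was lower by 0.19 and 0.15 on the log2 scale. Rbm5, also counted in the 9, encodes an RNA-binding protein and belongs to none of these classes. Of 16 cell cycle and DNA repair genes 6 were members, all 6 lower with palmitate (median -0.19) and all 3 listed without it (median -0.21), including the arginine methyltransferase Carm1, lower by 0.21 in both, and the centrosomal protein Cep57, lower by 0.25 and 0.28. These medians are close to that of all members, -0.19, and cover listed genes only. Genes of the cell cycle list that were not listed untreated went both ways there. Higher were Ccnb2 and Chek1 (each 0.17, SE 0.11), Kif23 (0.08, SE 0.08), Topbp1 (0.05, SE 0.06) and Dnmt1 (0.01, SE 0.05). Lower were Mre11a (-0.04, SE 0.04) and Zwilch (-0.07, SE 0.09). With palmitate all of these were lower. Myo5a, of the cytoskeleton list, was higher by 0.03 in both treatments and not listed. Of 9 genes grouped under TGF-beta, Hippo and Wnt signalling 3 were members, Aplp2, Tcf12 and Tgfbr2, and these were lower in both treatments. Of the 3, only Tgfbr2 is a core gene of these pathways. Smad3, Smad6, Acvr2b, Yap1, Ctnnb1 and Tle3 were not listed for genotype.

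Tgfbr2 (ENSMUSG00000032440, chr9:116084293-116175360), the type II receptor for TGF-beta, was the lowest of those 3. Its counts were 2506, 2535, 2476, 2448 and 2339 in palmitate-treated knockout libraries, against 3116, 3293, 3188, 3195 and 3012 in wild-type ones. They were 2678, 2437, 2466, 2489 and 2279 in untreated knockout and 3196, 3181, 3120, 2951 and 2945 in untreated wild-type libraries. The groups did not overlap, with log2 fold changes of -0.36 (SE 0.03, edgeR adjusted p = 9.34e-09 in the palmitate libraries) and -0.32 (SE 0.04). Tcf12, a helix-loop-helix transcription factor, was lower by 0.13 with palmitate and 0.16 without.

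The 8 members among 14 genes of cell death and NF-kB signalling divided, with 5 lower and 3 higher in each treatment. The 3 higher ones were the caspases. Lower were Icam1, an adhesion molecule induced by NF-kB (by 0.32 with palmitate and 0.25 without), Tyk2, a Janus kinase of cytokine receptors (by 0.23 in both), Keap1, the adaptor that degrades NRF2 (by 0.14 and 0.16), Birc3 and the adaptor Myd88 (by 0.22 and 0.26). The untreated differences of Icam1 and Birc3 were not called by edgeR. Of 12 genes for apolipoproteins and lipid supply 6 were members, and none of Apoa1, Apoa4, Apoa5 and Apoc3 was listed. Scap, the escort of the sterol regulatory factor SREBP, listed with palmitate alone, averaged 1846 ± 37.3 in knockout and 2221 ± 56.1 in wild-type cells (SD, n = 5 each), groups that did not overlap. Acat1, a mitochondrial thiolase listed without palmitate, was lower by 0.11.

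Of 9 detoxification and redox genes on the chromosome 4 were members. Cyp1a1 (ENSMUSG00000032315, chr9:57687928-57703824), a monooxygenase induced through the aryl hydrocarbon receptor, had 18.3, 27.2, 21.1, 11.5 and 29.9 in palmitate-treated knockout libraries, against 73.0, 80.1, 77.3, 55.8 and 65.1 in wild-type ones. It had 14.6, 13.9, 8.17, 5.70 and 3.55 in untreated knockout and 15.6, 30.9, 18.6, 16.3 and 23.2 in untreated wild-type libraries. The groups were far apart with palmitate (edgeR adjusted p = 8.13e-07 at a log2 fold change of -1.68, SE 0.19) and adjacent without it (-1.14, SE 0.34). Gsta1 and Gsta2 were lower with palmitate by 0.69 and 0.83, and their reads can fall on either gene. Of 15 genes for secreted and membrane proteins 7 were members, 3 lower and 3 higher with palmitate and 2 lower and 3 higher without. Ctsh, a lysosomal protease, was lower by 0.33 and 0.47.

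Onecut1, the hepatocyte transcription factor HNF6, listed with palmitate alone, had counts of 733, 751, 702, 791 and 750 in knockout and 848, 1037, 1028, 1102 and 969 in wild-type libraries. Knockout libraries were all lower (log2 fold change -0.42, SE 0.06). The choice of Onecut1, as that of Mmp13, required groups that did not overlap with palmitate. Plod2, a collagen lysyl hydroxylase (-0.49, SE 0.11), and 1110032A03Rik (-0.32, SE 0.08) were further genes lower with palmitate alone.

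Next came the members just inside the threshold of 0.05. In the authors' deposited untreated table Acad8, Bud13 and Zfp609 had adjusted p-values of 0.0480, 0.0484 and 0.0498, at edgeR log2 fold changes of -0.14, -0.19 and -0.15. In the authors' deposited palmitate table Tpbg, Ube4a and Pik3r4 had 0.0433, 0.0453 and 0.0486, at -1.57, -0.08 and -0.13. The authors' adjusted p of genes outside the threshold is not analysed here. Among the 29 chromosome 9 genes with counts in all 20 libraries that neither genotype table lists, the lowest values were those of Traip with palmitate (-0.28, SE 0.11) and Angptl6 without (-0.42, SE 0.15).

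Whether the untreated pattern held in libraries that did not choose it was asked by following the 223 members listed without palmitate into the palmitate libraries. Of these, 193 (86.5%) were listed again with the same sign and 0 with the opposite sign. From the same counts edgeR called 193 in the same direction, where it called 24.2% of all genes tested with palmitate. Only genes listed with palmitate have values there, so edgeR could call no more than these 193. Of the 206 lower members 178 were lower again, and of the 17 higher members 15 were higher again. Groups did not overlap for 166 of the 193 that have values in the palmitate genotype table, where this held for 70.5% of all listed genes and for 77.1% of all members listed with palmitate. The 193 were listed in both treatments, which favours separation, and no share is given for genes of other chromosomes listed in both. Listed protein-coding genes off chromosomes 9 and 14 carried over in 1591 of 2133 cases (74.6%), with 2 opposite. The members listed in both tables had nearly equal values in both, with a median difference of 0.00 between palmitate and untreated log2 fold changes and the middle 50% between -0.05 and 0.04. Being listed in both favours such agreement. The 30 members listed untreated alone and the 113 listed with palmitate alone are not in this comparison. Hykk, hydroxylysine kinase, was among those farthest apart, at -1.23 with palmitate and -2.34 without, on 44 and 13 knockout reads.

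**Figure D5:**
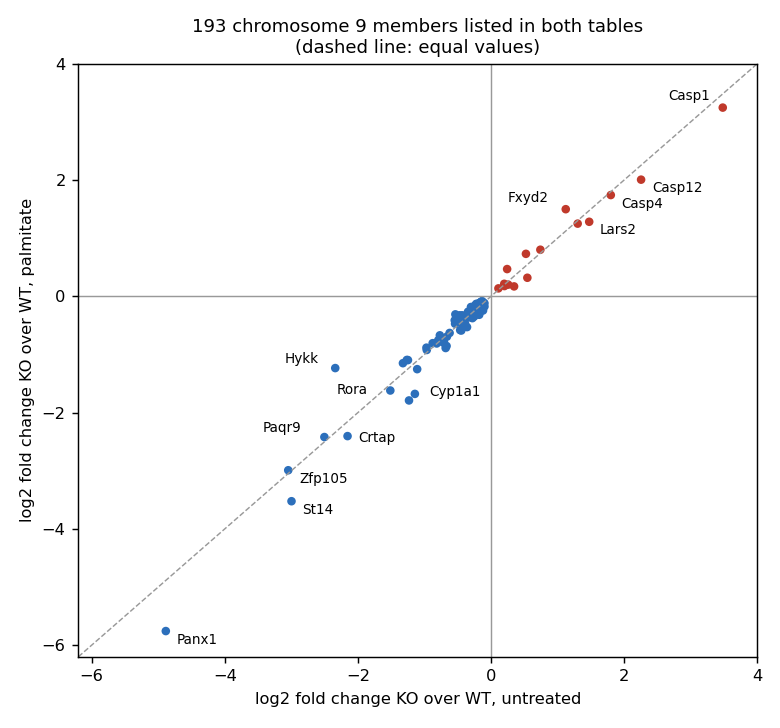
Log2 fold change of KO over WT with palmitate (vertical) against that without (horizontal) for the 193 chromosome 9 members listed in both tables, red where higher and blue where lower in KO cells, with a dashed line of equal values. All points lie in the lower left or upper right corner, since 0 members have opposite signs, and most lie near the line.

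Chromosome 9 genes picked for their response to palmitate, and not for genotype, showed less of the shift, and without palmitate their median lay within the spread between libraries. Of 57 such genes with counts in all 20 libraries, chosen by being listed for palmitate in both genotypes, 44 were lower and 13 higher in knockout cells with palmitate (median log2 fold change -0.13). Without palmitate 32 were lower and 25 higher (median -0.03, or -0.01 without untreated knockout replicate 1). The SD of this median between libraries was 0.035 without palmitate and 0.027 with it. The corresponding 860 genes off chromosomes 9 and 14 had medians of 0.02 and 0.06, and the 41 on chromosome 14 of -0.17 and -0.11. Of the 57, 28 were members, with medians of -0.20 and -0.18, and the other 29, listed for genotype in neither table, had medians of -0.04 with palmitate and 0.02 without. This split was made by the genotype listing itself, which favours large differences in the members and small ones in the rest. On 18 other chromosomes the median of genes picked this way ran from -0.04 to 0.08 with palmitate and from 0.00 to 0.14 without.

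Palmitate itself moved the members in both directions. The authors' deposited table for wild-type cells, which lists 15.8% of all genes tested, has 67 members, 35 higher and 32 lower with palmitate than without, where 8.86% and 6.93% of all genes tested were listed. The authors' deposited table for knockout cells, which lists 10.2%, has 32, 12 higher and 20 lower, where 5.76% and 4.46% were, and 28 members were in both tables. From the same counts edgeR called 63 and 26 members, where it called 14.6% and 7.56% of all genes tested. The knockout count fell to 16 without palmitate-treated knockout replicate 3 and to 17 without replicate 2, and the shares of all genes called then are not given here.

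Kif15, a spindle kinesin, had jointly normalised counts of 309, 334, 325, 309 and 324 in palmitate-treated and 167, 189, 159, 233 and 160 in untreated knockout libraries. In wild-type cells it had 352, 398, 313, 405 and 377 with palmitate and 155, 137, 159, 171 and 160 untreated. It rose with palmitate in both genotypes, by 0.82 (SE 0.11, edgeR adjusted p = 0.000186) in knockout and 1.24 (SE 0.09, edgeR adjusted p = 2.3e-08) in wild-type cells. Mmp13 rose by 2.78 (SE 0.26) in knockout and by 3.26 (SE 0.21) in wild-type cells, and Acaa1b by 0.71 (SE 0.13) and 0.72 (SE 0.08). Tpm1 fell by 0.32 (SE 0.04) and 0.28 (SE 0.03), and Icam1 by 0.46 (SE 0.08) and 0.39 (SE 0.04). Gsta1, uncertain as above, rose by 4.36 (SE 0.41) and 4.21 (SE 0.27).

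Whether genotype and palmitate interacted was tested over all 20 libraries for the 201 members with counts in each of them. No member was called by edgeR (0 of 201, smallest adjusted p = 0.588), where 0 of all 2993 genes (0%) were called, and 8 members had an unadjusted p under 0.05, against 172 (5.75%) of all genes. DESeq2 called 0 members with 8 at an unadjusted p under 0.05, and limma 0 with 9; over all genes they called 6 and 0. The median difference of the palmitate effect, knockout minus wild type, was 0.00, with the middle 50% of members between -0.05 and 0.04. Kif15 had the smallest unadjusted p, 0.00518, at a difference of -0.42. Of the 201 members, 193 entered by being listed for genotype in both treatments, where 0 had opposite signs. The remaining members have counts in fewer libraries and did not enter this test. They are members listed for genotype in a single treatment, so the choice of genes favours a small interaction. The test therefore does not show that genotype left the palmitate response unchanged.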

How the data were processed

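Per the submitters' processing notes the tools named are FastQC 0.11.9, HISAT2, featureCounts 1.5.0-p3 and DESeq2, with build mm10; neither strand setting nor annotation is given in the sources used here. For each of 4 comparisons, the authors deposited a table of the genes below an adjusted p-value of 0.05, with read counts, normalised counts (a signal: the count over 1 size factor per library), FPKM, a log2 fold change and p-values. FPKM served only for library totals and marker levels, and gene lengths for a length filter. The 8 tables of enrichment were not used, and there were 0 columns of other samples.

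Genes were selected by the rule above, and the members, lists and windows were chosen with earlier results of these data known. Log2 fold changes and SE are from edgeR 4.0.16 (R 4.3.3), a quasi-likelihood test on the deposited counts of 10 libraries, with the authors' size factors, without a replicate block, and Benjamini-Hochberg adjustment over the number of genes the authors tested. That number, 16106 for genotype untreated, 17611 for genotype with palmitate, 12871 and 13764 for palmitate in knockout and wild-type cells, was worked out from their p-values. The files hold listed genes only, so dispersions come from those. The interaction used 2993 genes with counts in all 20 libraries and a joint set of size factors. Scripts were tested on simulated data. Alternatives were TMM, DESeq2 size factors, library totals, DESeq2 1.42.0, limma 3.58.1 with a pseudocount of 1, a mean count of at least 10, a length of at least 1000 bases, other windows, and leaving out each library. Named genes are the 10 lowest and up to 10 highest members listed untreated with a mean count of at least 50 and separate groups, the 5 lowest and 5 highest listed with palmitate alone, the first and last, the 3 nearest the threshold in each table, the highest count per 10 Mb window and 2 to 4 per list; Casp1, Panx1, St14, Zfp105, Paqr9, Crtap, Acp5, Hykk, Dync2h1, Tmem123, Arhgap42, Mthfs, Kif15, Myd88, Ctsh, Traip and Angptl6 were added after their values were seen. Ccnb2, Chek1, Dnmt1, Mre11a, Zwilch and Myo5a were named later, as genes of a list that have counts though no genotype listing. The promoter motifs were chosen after a search for an interferon-stimulated response element and an NF-kB site, not reported further, found no match in the 4 promoters shown.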

Additional observations from a re-analysis of the deposited data

Results flagged for a closer look

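Among the normalised counts of 74 named genes, 244 groups of 5 libraries were examined for a library far from the other 4, and 13 (5.33%) held one, where chance gives about 1 in 20. In knockout cells with palmitate, Col7a1 was 235 in replicate 3 against 181 to 191 in the others, and Panx1 was 1.15 in replicate 4 against 0. In untreated knockout cells, Casp4 was 147 in replicate 3 against 103 to 113, and replicate 5 was low for Carm1 at 1948 against 2155 to 2199 and for Tcf12 at 3517 against 4092 to 4289. In wild-type cells with palmitate, replicate 1 was 298 for Snapc5 against 312 to 317, 10.7 for Tpbg against 5.71 to 6.59 and 16962 for Plscr1 against 15743 to 16088, and replicate 2 was 264788 for Eef1a1 against 284671 to 290375. In untreated wild-type cells, Msantd4 was 3316 in replicate 2 against 3364 to 3383, Trf was 1116 in replicate 2 against 1395 to 1472, Gnai2 was 12247 in replicate 3 against 11156 to 11422, and Adamts7 was 126 in replicate 5 against 178 to 188. Leaving out any 1 library reversed the direction of none of these genes.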

How the results depend on the processing

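All summary values kept their direction under the alternatives run. Leaving out 1 library at a time, edgeR called 241 to 259 members lower and 27 to 32 higher in knockout cells with palmitate, and 129 to 169 lower and 10 to 15 higher without. Palmitate calls were 16 to 28 in knockout and 49 to 58 in wild-type cells, and the interaction gave 0 calls throughout. Shares of all genes called with a library left out are not given, so these counts describe the members alone. The median log2 fold change of the members ran from -0.20 to -0.19 in both treatments. That of genes picked for palmitate ran from -0.14 to -0.11 with palmitate and from -0.06 to -0.01 without. Untreated-listed members called again ran from 182 to 190 of 223. With TMM the palmitate median of the members was -0.20 and that of the palmitate-picked genes -0.17, each moved by more than the spread between libraries. Rescaling moved the median of all genes by at most 0.04 on the log2 scale.

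For single genes, 94 of 2069 alternatives lost the call, in 14 of 122 results, 21 gained one and 0 reversed. Same-numbered libraries had correlations of -0.264 to 0.403, so the numbers were not taken as a pairing, and with a replicate block edgeR called 259 members lower and 31 higher with palmitate, 157 lower and 11 higher without, 24 and 65 for palmitate in knockout and wild-type cells, and 0 for the interaction. The share of all genes called with the block is not given here, so these counts do not set the members apart from other genes. Only listed genes have values, and counts of under 100 limit the size of the largest differences.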
